A study of Mus musculus with 9 samples.

Results

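The resident peritoneal macrophage identity genes described here are Gata6, Rarb, Timd4, Selp, Vsig4, Adgre1, Icam2, Cd9, Alox15 and Fn1. They were chosen by name as genes known from resident macrophages of the peritoneal cavity, and all 10 were found among the 54059 genes of the deposited FPKM table after gene identifiers had been matched to symbols with GENCODE release M21. FPKM counts sequenced fragments relative to the length of the transcript and to the depth of the library, so that levels of different genes can be compared per length. In GRCm38, Timd4 (chr11:46810800-46844332), Alox15 (chr11:70344152-70352031) and Icam2 (chr11:106377656-106388075) lie far apart on chromosome 11, Fn1 and Selp on chromosome 1, and Gata6, Rarb, Adgre1, Cd9 and Vsig4 on chromosomes 18, 14, 17, 6 and X, so that no member shares an exon with another.

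The RNA came from peritoneal macrophages of C57BL/6 mice with a labelled age of 8 weeks. The mice had received 1 ml of starch broth into the peritoneal cavity, peritoneal cells were washed out 3 days later, and the adherent cells were cultured. There were 3 groups of 3 libraries. WT cells were wild type and were stimulated in vitro with imiquimod (IMQ), a TLR7 agonist, at 10 ug per ml for 4 h. M-Shp2-/- cells, labelled SHP2lyz2-/-, came from mice with floxed Shp2 and a Cre recombinase under the control of the Lyz2 gene, which is active in monocytes, macrophages and granulocytes, and they received the same IMQ stimulation. SHP099 cells were wild-type cells pretreated with the SHP2 inhibitor SHP099 at 10 uM for 2 h and then stimulated in the same way. Starch, culture and IMQ were thus shared by all 9 libraries, and there was no unstimulated, freshly isolated or unelicited group. The labels do not say whether the 3 libraries of a group came from separate mice, so that p-values measure only the spread between these libraries, which may be technical.

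In the unstimulated cavity most macrophages are long-lived resident cells. The transcription factor GATA6, induced by retinoic acid from the surrounding tissue, sets much of their program, and they carry high levels of the adhesion and scavenger molecules encoded by several of these genes. After an irritant such as starch, resident cells become hard to recover from the lavage, and monocytes enter and differentiate into macrophages that carry little of the resident program, while Cd9, Fn1 and Adgre1 are also expressed by many other macrophages.

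The number of reads behind the normalization, recovered from the FPKM steps of genes with few reads, ranged from 39843142 to 50981133 per library, and the table holds values that correspond to a single read. Macrophage markers were high in every library. The 10 general macrophage genes summed to 7991 to 14269 FPKM per library. By mean over the 9 libraries, Lyz2 was the most abundant (4743 to 10715 FPKM) and Cd68 next (1211 to 1740 FPKM). Cd14 exceeded Cd68 in WT replicates 2 and 3.

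Ptpn11, which encodes SHP2, was at 45.8, 44.0 and 40.0 FPKM in the WT libraries, at 18.6, 17.8 and 18.9 in the M-Shp2-/- libraries and at 43.0, 42.1 and 39.6 in the SHP099 libraries. Each M-Shp2-/- library thus lay below each of the other 6, as labelled. The log2 fold change against WT was -1.19 (SE 0.096, n = 3 per group, limma adjusted p = 0.0168, range 0.00186 to 0.196 over the alternative settings).

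The third M-Shp2-/- library stood apart from the other 2 of its group. Over log2(FPKM + 1) of the 11450 genes with a mean of at least 1 FPKM, its correlation across genes was 0.967 and 0.954 with M-Shp2-/- replicates 1 and 2, whereas these correlated at 0.992 with each other, and its closest library was SHP099 replicate 1 (0.984). Its Ptpn11 level matched its label. It also had the highest sum of 6 fibroblast genes (586 FPKM) and the lowest sum of 14 genes of small peritoneal or monocyte-derived macrophages (396 FPKM), and several results below are given with and without it. WT replicate 3 was also somewhat apart, at 0.976 and 0.974 with WT replicates 1 and 2, which correlated at 0.984, and its closest library was SHP099 replicate 3 (0.978).

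The 10 genes fell into 3 ranges of expression. Fn1, Cd9 and Adgre1 had means of 454, 448 and 266 FPKM over the 9 libraries and ranked 219, 225 and 417 among all 54059 genes. Vsig4, Icam2, Gata6 and Selp followed at 5.95, 3.28, 1.44 and 1.38 FPKM. Timd4, Alox15 and Rarb had means of 0.614, 0.610 and 0.207 FPKM and lay below the minimum mean of 1 FPKM set for testing, so that 7 of the 10 genes entered the test. Adgre1 exceeded Vsig4 in 9 of 9 libraries and Selp exceeded Timd4 in 9 of 9. The order of other neighbours varied between libraries. Vsig4 exceeded Icam2 and Alox15 exceeded Rarb in 8 of 9, Cd9 exceeded Adgre1 and Icam2 exceeded Gata6 in 7 of 9, Timd4 exceeded Alox15 in 6 of 9, Fn1 exceeded Cd9 in 5 of 9 and Gata6 exceeded Selp in 3 of 9. No resident or unelicited cells were measured beside these, so that the levels cannot be compared with those of resident cells.

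**Figure D1:**
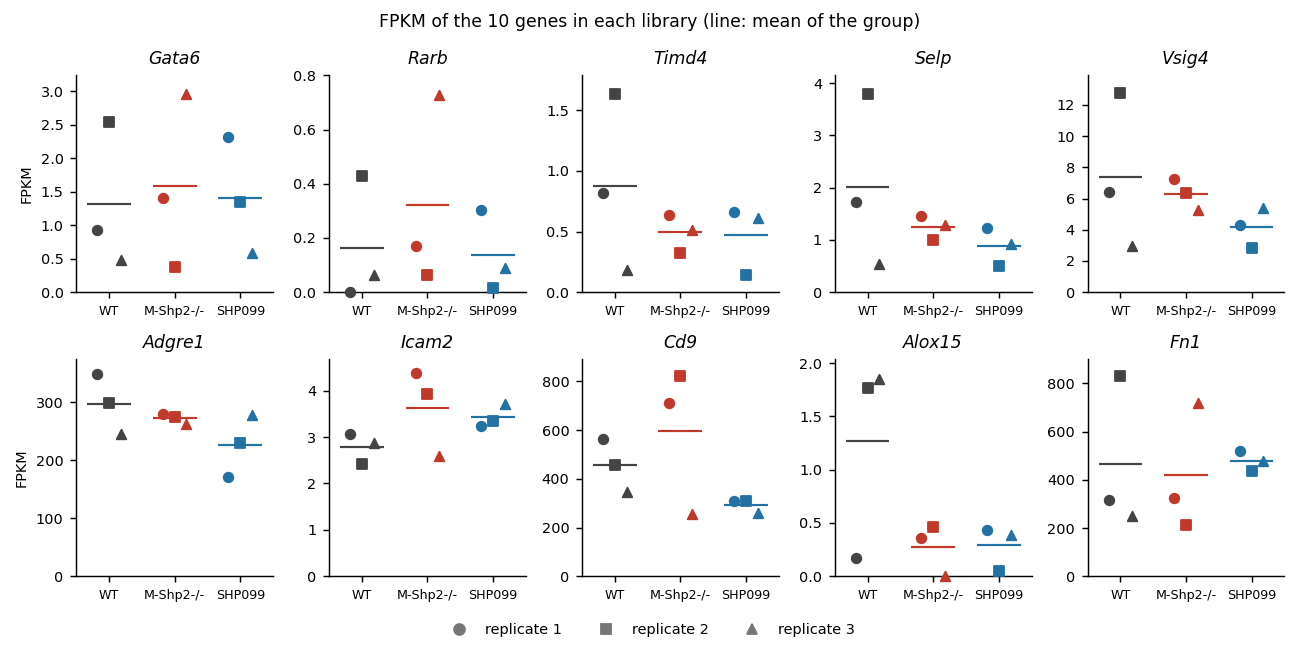
FPKM (linear axis from 0) of each of the 10 genes in each of the 9 libraries, with a line at the mean of each group and a symbol for each replicate number. Gata6, Rarb and Fn1 are highest in WT replicate 2 and M-Shp2-/- replicate 3, Timd4, Selp and Vsig4 are highest in WT replicate 2, and Cd9 is at 257 FPKM in M-Shp2-/- replicate 3 against 711 and 823 FPKM in the other 2 libraries of that group.

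Gata6, the factor that sets the resident program, was at 0.924, 2.54 and 0.486 FPKM in the WT libraries, at 1.41, 0.380 and 2.97 in the M-Shp2-/- libraries and at 2.31, 1.34 and 0.579 in the SHP099 libraries. WT replicate 2, M-Shp2-/- replicate 3 and SHP099 replicate 1 were high in their groups, and the groups overlapped in full. The means were 1.32 ± 1.08, 1.58 ± 1.30 and 1.41 ± 0.868 FPKM (SD, n = 3). Its spread within groups, 0.653 on the log2 scale against a median of 0.188 over all genes tested, exceeded that of 95.9% of them, and 1.0% of its variance lay between the groups (median of all genes tested 37.9%). The exons of Gata6 overlap those of 1010001N08Rik on the opposite strand, and whether counting kept the strands apart is not given in the sources used here, so that reads of the pair cannot be told apart.

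Rarb, which encodes a retinoic acid receptor and is itself a known retinoic acid target, was at 0, 0.430 and 0.0625 FPKM in the WT libraries, at 0.169, 0.0645 and 0.728 in the M-Shp2-/- libraries and at 0.303, 0.0167 and 0.0909 in the SHP099 libraries. WT replicate 2, M-Shp2-/- replicate 3 and SHP099 replicate 1 were high, as for Gata6, and the groups overlapped. These values correspond to 0, 33 and 4 reads, to 11, 4 and 50 reads, and to 20, 1 and 6 reads. The exact Poisson 95% interval of the 50 reads was 37.1 to 65.9 and that of the 4 reads in M-Shp2-/- replicate 2 was 1.09 to 10.2, so that these libraries differed by more than counting error, which is the only error such an interval covers. Exons of Top2b and Gm48162 on the opposite strand overlap those of Rarb.

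Among the surface molecules, Timd4 encodes a receptor for phosphatidylserine on dying cells. Its level was 0.819, 1.63 and 0.184 FPKM in the WT libraries, 0.639, 0.324 and 0.515 in the M-Shp2-/- libraries and 0.661, 0.139 and 0.609 in the SHP099 libraries. WT replicate 2 was the highest of all 9 and both WT replicate 3 and SHP099 replicate 2 were lowest, with 181 reads (exact Poisson 95% interval 156 to 209) against 17 (9.90 to 27.2) and 12. The WT group alone therefore spanned the range of both other groups except for SHP099 replicate 2.

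Selp, which encodes P-selectin, was at 1.72, 3.80 and 0.531 FPKM in the WT libraries, at 1.45, 0.991 and 1.29 in the M-Shp2-/- libraries and at 1.23, 0.494 and 0.914 in the SHP099 libraries. Again WT replicate 2 was highest and WT replicate 3 and SHP099 replicate 2 were lowest. P-selectin is also a platelet and endothelial molecule. The 6 platelet genes, of which Gp1bb was at 0 in every library, summed to 0.276 to 0.813 FPKM with Itga2b the most abundant, and the 6 endothelial genes, of which Cldn5 was at 0 in every library, summed to 1.35 to 5.33 FPKM with Kdr the most abundant, and their part in the Selp values was not tested. Exons of Gm16587 and Gm16548 overlap those of Selp on the opposite strand.

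Vsig4, the complement receptor of the immunoglobulin superfamily, was at 6.41, 12.8 and 2.94 FPKM in the WT libraries, at 7.24, 6.39 and 5.24 in the M-Shp2-/- libraries and at 4.33, 2.83 and 5.37 in the SHP099 libraries. WT replicate 2 was once more the highest and WT replicate 3 and SHP099 replicate 2 the lowest. All 3 M-Shp2-/- libraries were near or above the SHP099 libraries, with an overlap between 5.24 and 5.37 FPKM.

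Timd4, Selp and Vsig4 thus shared their high and low libraries, and their upstream sequences are shown for that reason. The RefSeq promoter table (GRCm38.p6) held 5 of the 10 genes, namely Timd4, Selp, Vsig4, Cd9 and Rarb. The 250 bases before the start of Timd4 (chr11:46810549-46810798, plus strand), Selp (chr1:164115014-164115263, plus strand) and Vsig4 (chrX:96293439-96293688, minus strand) contain no exon annotated in GENCODE M21 and are printed 5′ to 3′. Capitals mark matches to GAGGAA, a core sequence bound by the macrophage factor PU.1.
Timd4: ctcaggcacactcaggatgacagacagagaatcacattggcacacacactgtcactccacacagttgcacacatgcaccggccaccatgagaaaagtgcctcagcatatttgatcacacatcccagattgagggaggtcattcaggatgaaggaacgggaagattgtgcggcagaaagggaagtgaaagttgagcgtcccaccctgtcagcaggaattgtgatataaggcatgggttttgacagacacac
Selp: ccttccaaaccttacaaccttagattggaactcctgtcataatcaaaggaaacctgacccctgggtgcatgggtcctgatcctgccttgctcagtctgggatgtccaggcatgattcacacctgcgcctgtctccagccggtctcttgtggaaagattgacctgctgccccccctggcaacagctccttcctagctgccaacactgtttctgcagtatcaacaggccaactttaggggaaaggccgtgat
Vsig4: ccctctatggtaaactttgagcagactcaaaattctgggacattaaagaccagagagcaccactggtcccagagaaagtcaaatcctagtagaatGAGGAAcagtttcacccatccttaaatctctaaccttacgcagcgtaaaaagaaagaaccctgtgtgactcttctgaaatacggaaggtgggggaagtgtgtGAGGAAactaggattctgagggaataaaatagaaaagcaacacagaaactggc
GAGGAA was searched on both strands and is found in 23.3% of the 32851 promoters of the table over the same 250 bases. It matched at 2 places upstream of Vsig4 and at none upstream of the other 4 genes. The letters GATA with A or T before them and A or G after them, on either strand, occur in 26.5% of all promoters and in 0 of these 5. Upstream of Rarb, from 52 to 37 bases before its RefSeq start, lies a match to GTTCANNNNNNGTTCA, which contains the direct repeat bound by retinoic acid receptors and occurs in 0.067% of all promoters (22 of 32851). The windows of Cd9 and Rarb overlap exons in GENCODE M21 and are not printed. A match is a description of these letters and not evidence of binding.

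Adgre1, the F4/80 antigen used to identify macrophages, was abundant. It was at 349, 300 and 245 FPKM in the WT libraries, at 280, 274 and 263 in the M-Shp2-/- libraries and at 172, 230 and 279 in the SHP099 libraries. WT replicate 1 was highest, SHP099 replicate 1 lowest, and the M-Shp2-/- libraries lay within the range of WT. Its highest value was 2.03 times its lowest over the 9 libraries. Its within-group spread of 0.251 (log2) exceeded that of 68.9% of the genes tested.

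Icam2, a ligand of leukocyte integrins that separates large resident macrophages from small ones by flow cytometry, was at 3.07, 2.42 and 2.87 FPKM in the WT libraries, at 4.37, 3.93 and 2.58 in the M-Shp2-/- libraries and at 3.23, 3.35 and 3.72 in the SHP099 libraries. All 3 SHP099 libraries lay above all 3 WT libraries, whereas M-Shp2-/- replicate 3 lay among the WT values. With 83 to 133 reads per library the counting intervals are wide next to these differences: SHP099 replicate 1 had an exact Poisson 95% interval of 2.63 to 3.93 FPKM and WT replicate 1 of 2.49 to 3.75 FPKM. Its values, from 2.42 to 4.37 FPKM, had the smallest ratio of highest to lowest among the 8 genes above 0 in every library.

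Cd9, a tetraspanin, was at 562, 457 and 348 FPKM in the WT libraries, at 711, 823 and 257 in the M-Shp2-/- libraries and at 309, 308 and 259 in the SHP099 libraries. The SHP099 libraries lay close together and below all WT libraries. M-Shp2-/- replicates 1 and 2 were the highest of all 9, and replicate 3 of that group was the lowest. Exons of Gm26728 overlap those of Cd9 on the opposite strand.

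Alox15, a lipoxygenase that oxidizes arachidonic and linoleic acid, was at 0.175, 1.77 and 1.85 FPKM in the WT libraries, at 0.359, 0.462 and 0 in the M-Shp2-/- libraries and at 0.433, 0.0530 and 0.385 in the SHP099 libraries. WT replicates 2 and 3, with 128 and 112 reads, were above every other library, while WT replicate 1, with 11 reads, lay among the other groups. Eosinophils also express Alox15. The 6 eosinophil genes summed to 0.449, 0.391 and 0.959 FPKM in WT, to 1.00, 0.750 and 0.333 FPKM in M-Shp2-/- and to 0.055, 0.030 and 0.019 FPKM in SHP099, with Siglecf the most abundant and Ear6 at 0 in every library, and their part in the Alox15 values was not tested.

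Fn1, which encodes fibronectin, was at 315, 829 and 248 FPKM in the WT libraries, at 326, 215 and 719 in the M-Shp2-/- libraries and at 518, 438 and 476 in the SHP099 libraries. WT replicate 2 and M-Shp2-/- replicate 3 were high, as for Gata6 and Rarb, and the SHP099 libraries lay between the extremes of the other groups. Its within-group spread of 0.739 (log2) exceeded that of 97.3% of the genes tested. Exons of Apol7d overlap those of Fn1 on the opposite strand.

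The next question was what accompanied deletion of Shp2 in these cells. Of the 7 genes tested in M-Shp2-/- against WT, limma called 0, a call being an adjusted p of 0.005 or lower together with a log2 fold change of 1 or more in size, and over all genes it called 1 of 11450 (0.00873%). At an adjusted p of at most 0.05 the count was 0 of 7 against 0.0873% of all genes, 0 of 7 had an unadjusted p under 0.05 against 1204 of all genes, voom on recovered reads called 0 of 7 and 1 of all genes, and in 0 of 7 did the libraries of the groups not overlap, against 19.1% of all genes. The median log2 fold change of the 7 genes was -0.027 and that of all genes tested 0.147. With median-of-ratios scaling, which by design brings the typical gene near 0, these medians were -0.17 and -0.012, and none of the 10 genes changed direction under that scaling.

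The lowest adjusted p among the 7 genes was that of Icam2, at a log2 fold change of 0.27 (95% confidence interval -0.19 to 0.74, limma adjusted p = 0.551, range 0.238 to 0.897 over the alternatives, higher than the WT maximum in 2 of 3 libraries), and of 0.45 without M-Shp2-/- replicate 3 (adjusted p = 0.238). Cd9 had a log2 fold change of 0.25 with an interval of -0.81 to 1.31, and of 0.77 without M-Shp2-/- replicate 3 (limma adjusted p = 0.784 and 0.225, range over the alternatives 0.225 to 0.991). Without M-Shp2-/- replicate 2 it was -0.065. Adgre1 had the narrowest interval, -0.44 to 0.22 around -0.11. For Gata6, Selp, Vsig4 and Fn1 the intervals ran from -0.99 or less to 0.68 or more, and differences inside them were not detectable with these libraries.

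The sign of several of these estimates rested on single libraries. Without WT replicate 2 the log2 fold changes became 0.42 for Vsig4, 0.13 for Selp, 0.40 for Fn1 and 0.019 for Timd4, from -0.027, -0.28, -0.12 and -0.26. Without M-Shp2-/- replicate 3 they became -0.25 for Gata6, -0.043 for Rarb and 0.080 for Vsig4, from 0.13, 0.17 and -0.027. Adgre1 was at 0.009 without WT replicate 1, Gata6 at -0.14 without WT replicate 3 and Fn1 at 0.27 without M-Shp2-/- replicate 2. No direction can therefore be given for these genes. Timd4, Rarb and Alox15 were fitted only where no minimum level was set, and Alox15 then had a log2 fold change of -0.74 (interval -1.77 to 0.29, limma adjusted p = 0.684).

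Pretreatment with SHP099 asked what the inhibitor went with in wild-type cells, against the same WT libraries. limma called 0 of 7 genes at the stricter threshold, where 19 of 11450 (0.166%) were called, and 0 of 7 at an adjusted p of at most 0.05, where 6.96% of all genes passed. Voom called 0 of 7 and 9 of all genes, and an unadjusted p under 0.05 was found for 1 of 7 and for 3061 of all genes. The groups did not overlap for 2 of the 7 genes, Cd9 and Icam2, against 34.6% of all genes tested. The median log2 fold change was -0.40 over the 7 genes and 0.13 over all genes, or -0.55 and -0.005 after median-of-ratios scaling.

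Cd9 was the member with an unadjusted p under 0.05. The log2 fold change was -0.62 (SE 0.176, 95% confidence interval -1.03 to -0.20, limma adjusted p = 0.0793, range 0.0184 to 0.363 over the alternatives), with 3 of 3 SHP099 libraries below the lowest WT library. It passed an adjusted p of at most 0.05 with median-of-ratios scaling (-0.77, limma adjusted p = 0.0300), with the replicate block and without WT replicate 3 (-0.80, 0.0184), and in none of the other settings tried. Icam2 was higher in 3 of 3 SHP099 libraries at a log2 fold change of 0.23 (-0.091 to 0.55, limma adjusted p = 0.330).

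Adgre1 was at -0.40 (-0.87 to 0.065, limma adjusted p = 0.246), Selp at -0.55 (-1.50 to 0.40) and Vsig4 at -0.54 (-1.57 to 0.49). Without WT replicate 2, Selp and Vsig4 came to -0.14 and -0.091. Gata6 and Fn1, at 0.092 and 0.25, came to -0.18 and -0.10 without WT replicate 3, and Fn1 to 0.77 without WT replicate 2 (limma adjusted p = 0.0405, range 0.0405 to 0.937 over the alternatives). Timd4 and Alox15, fitted with no minimum level, were at -0.30 and -0.72, with intervals that included 0. The lower levels of Selp and Vsig4 in SHP099 thus rested mainly on WT replicate 2, and Gata6 and Fn1 had no set direction. The count of all genes called was itself 0 without any of the 3 SHP099 libraries in turn, 4 and 5 without WT replicates 1 and 2, and 26 without WT replicate 3.

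The comparison of M-Shp2-/- with SHP099 cells set deletion of Shp2 beside inhibition of SHP2. The protein itself was not measured in these libraries. limma called 0 of 7 genes, and 0 of all 11450 (0%), at the stricter threshold, while 1437 of all genes and 1 of the 7 had an unadjusted p under 0.05 and voom called 0 in both. At an adjusted p of at most 0.05 it was 0 of 7 against 0.0699% of all genes, and the groups did not overlap for 0 of 7 against 17.7%. The median log2 fold change was 0.27 over the 7 genes and 0.017 over all genes tested. Estimates were below 0 for 46.8% of all genes tested, and 6 of the 7 estimates were above 0. Of these 6, Gata6 turned to -0.34 without M-Shp2-/- replicate 3 and -0.24 without SHP099 replicate 3, and Icam2 to -0.076 and -0.014 without M-Shp2-/- replicates 1 and 2.

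Cd9 had a log2 fold change of 0.87 (-0.12 to 1.86, limma adjusted p = 0.436), with 2 of 3 M-Shp2-/- libraries above all SHP099 libraries. Without M-Shp2-/- replicate 3 it was 1.39 at an adjusted p of 0.00175, past the stricter threshold, and over all alternatives its adjusted p ranged from 0.00175 to 0.827. That library also decided the count over all genes, which was 159 without it. Vsig4 had a log2 fold change of 0.52 (0.009 to 1.02, limma adjusted p = 0.394), and 0.62 without M-Shp2-/- replicate 3. The other 5 genes had intervals that included 0, although Fn1 came to -0.85 without M-Shp2-/- replicate 3 (limma adjusted p = 0.0223, range 0.0223 to 0.990 over the alternatives) and to 0.023 without replicate 2. M-Shp2-/- replicates 1 and 2 thus had more Cd9 than the SHP099 libraries, and replicate 3 had as little. Itgax, a gene of monocyte-derived and dendritic cells, followed a similar course, at 162, 77.8 and 54.9 FPKM in WT, 200, 267 and 13.5 FPKM in M-Shp2-/- and 14.9, 19.5 and 20.2 FPKM in SHP099, as did Mrc1, at 61.5, 43.8 and 43.5 FPKM, 59.8, 71.2 and 19.4 FPKM, and 10.3, 10.1 and 9.79 FPKM. Both were set beside Cd9 after their values were seen, and the relation was not tested. The list of small peritoneal or monocyte-derived macrophage genes, from which both were taken, did not follow Cd9 as a whole. In SHP099 against WT, 5 of its 10 tested genes had estimates above 0 and 5 below, where 28.8% of all genes tested were below 0.

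**Figure D2:**
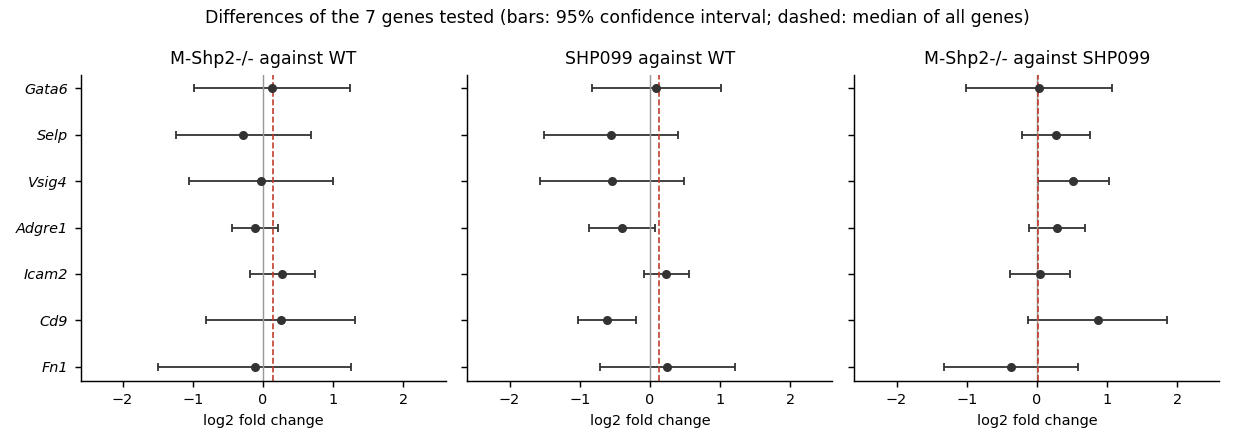
Log2 fold change (horizontal axis) of the 7 genes with a mean of at least 1 FPKM in each of the 3 comparisons, from limma on log2(FPKM + 1), with bars for the 95% confidence interval and a dashed line at the median of all genes tested. Only the bars of Cd9 in SHP099 against WT (-1.03 to -0.20) and of Vsig4 in M-Shp2-/- against SHP099 (0.009 to 1.02) leave out 0, and neither gene passed after adjustment over all genes.

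For each of the 10 genes, from 1.0% to 44.2% of the variance in log2(FPKM + 1) lay between the groups and the rest between libraries of a group. The genes were therefore compared with each other across the 9 libraries. Of 65 relations computed in all, 45 were between members and 20 between a member and the summed FPKM of 6 fibroblast or 6 mesothelial genes, and p-values were adjusted over the 65 by the Benjamini-Hochberg method. Among the 45 pairs, Pearson's r was above 0 in 28 and below 0 in 17, with a median of 0.291. Of the pairs, 3 had an adjusted exact permutation p of at most 0.05 by both Pearson's r and Spearman's rho, namely Timd4 with Selp, Selp with Vsig4, and Gata6 with Fn1. By Pearson's r 5 pairs passed and by Spearman's rho 4. The permutations exchanged all 9 libraries regardless of group, so that these p-values do not set relations within groups apart from differences between groups. The r values given below relative to group means carry no p-value.

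Timd4 and Selp correlated at r = 0.965 (exact permutation p = 0.000229, adjusted p = 0.00743) and rho = 0.883 (p = 0.00308, adjusted p = 0.0400). Without WT replicate 2 and SHP099 replicate 2, the libraries farthest from the median of Timd4, r was 0.866, and with each value taken relative to its group mean it was 0.981. Selp and Vsig4 correlated at r = 0.926 (exact permutation p = 0.00102, adjusted p = 0.0166) and rho = 0.850 (p = 0.00607, adjusted p = 0.0493), with r = 0.755 without the same 2 libraries and 0.938 relative to group means. Timd4 and Vsig4 had r = 0.884 (exact permutation p = 0.00312, adjusted p = 0.0253) and rho = 0.750 (p = 0.0255, adjusted p = 0.166), and r = 0.594 without those libraries, so that much of this relation rests on them. Adgre1 and Vsig4 passed by rank only, with rho = 0.883 (exact permutation p = 0.00308, adjusted p = 0.0400) against r = 0.561 (p = 0.117, adjusted p = 0.456), and r = 0.943 without SHP099 replicate 1 and WT replicate 1.

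Gata6 and Fn1 correlated at r = 0.848 (exact permutation p = 0.00579, adjusted p = 0.0394) and rho = 0.867 (p = 0.00451, adjusted p = 0.0419), with r = 0.736 without M-Shp2-/- replicates 2 and 3 and 0.881 relative to group means. Gata6 and Rarb had r = 0.833 (exact permutation p = 0.00297, adjusted p = 0.0253) and rho = 0.733 (p = 0.0311, adjusted p = 0.169), with r = 0.801 without the same 2 libraries. Gata6 and Timd4, by contrast, had r = 0.496 (exact permutation p = 0.175, adjusted p = 0.512) and rho = 0.450 (p = 0.230, adjusted p = 0.534), with r = 0.581 without those 2 libraries. The high libraries of Gata6 were thus those of Rarb and Fn1 and only in part those of Timd4, and the difference between these correlations was not tested.

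**Figure D3:**
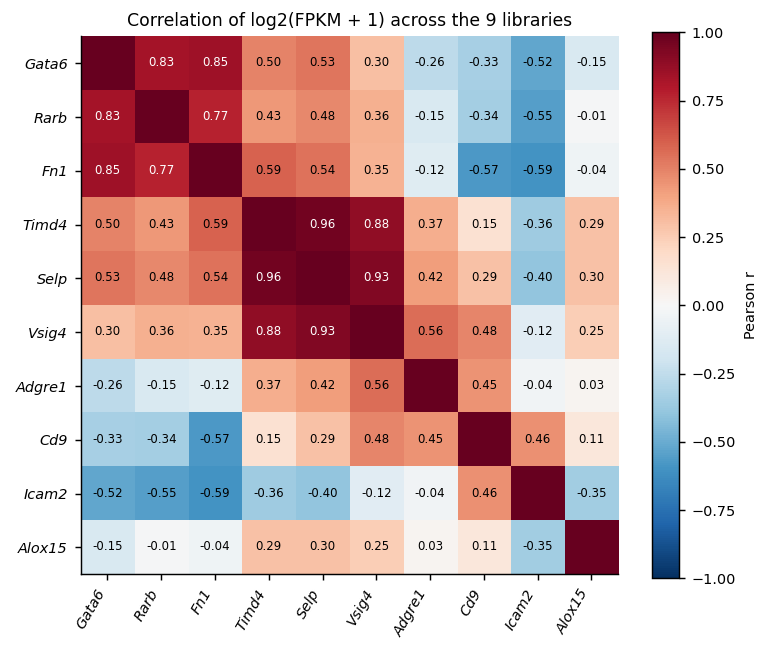
Pearson correlation of log2(FPKM + 1) across the 9 libraries for each of the 45 pairs of genes, with rows and columns in the same order and colour from -1 to 1. Gata6, Rarb and Fn1 have r of 0.766 to 0.848 with each other (Rarb with Fn1 did not pass, adjusted exact permutation p = 0.0781), Timd4, Selp and Vsig4 have r of 0.884 to 0.965, and Adgre1, Cd9, Icam2 and Alox15 have no pair with an adjusted p of at most 0.05 by Pearson's r.

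The libraries in which Gata6, Rarb and Fn1 were high were also those with the highest levels of fibroblast genes. The 6 fibroblast genes, led by Col1a1 and Col1a2, summed to 63.8, 303 and 39.8 FPKM in the WT libraries, to 135, 51.4 and 586 FPKM in the M-Shp2-/- libraries and to 361, 137 and 101 FPKM in the SHP099 libraries. Lum, the lowest of them, was at 0 in WT replicate 1 and at most 0.251 FPKM elsewhere. The 6 mesothelial genes, led by Wt1 and Lrrn4, summed to 3.60, 9.69 and 2.12 FPKM, to 6.49, 2.47 and 11.9 FPKM and to 8.32, 6.60 and 3.19 FPKM. Only Wt1 and Lrrn4 had a mean of at least 1 FPKM, and the list did not vary as a whole. Krt19 and Krt8 were highest in the same WT library as the sum. In M-Shp2-/- they were highest in replicate 1 (0.967 and 0.958 FPKM), against 0.648 and 0.571 FPKM in replicate 3. In SHP099 they were highest in replicate 2 (0.537 and 0.462 FPKM). GATA6, retinoic acid receptors and fibronectin are also known from mesothelial cells or fibroblasts.

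Gata6 followed the mesothelial sum at r = 0.976 (exact permutation p = 1.65e-05, adjusted p = 0.00107) and rho = 0.967 (p = 0.000165, adjusted p = 0.0107), with r = 0.973 without M-Shp2-/- replicate 2 and WT replicate 3 and 0.987 relative to group means. It followed the fibroblast sum at r = 0.952 (exact permutation p = 0.000416, adjusted p = 0.00902) and rho = 0.933 (p = 0.00075, adjusted p = 0.0244), with r = 0.929 without M-Shp2-/- replicate 3 and WT replicate 3 and 0.979 relative to group means. Without M-Shp2-/- replicate 3 alone, r was 0.968 and 0.935. For the mesothelial sum the other 2 genes were less clear. Fn1 had r = 0.842 (exact permutation p = 0.00606, adjusted p = 0.0394) and rho = 0.867 (p = 0.00451, adjusted p = 0.0419), but r = 0.685 without M-Shp2-/- replicate 2 and WT replicate 3. Rarb did not pass, at r = 0.779 (exact permutation p = 0.00978, adjusted p = 0.0578) and rho = 0.683 (p = 0.0503, adjusted p = 0.234), with r = 0.828 without them.

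Fn1 followed the fibroblast sum at r = 0.888 (exact permutation p = 0.00208, adjusted p = 0.0226) and rho = 0.883 (p = 0.00308, adjusted p = 0.0400). Without M-Shp2-/- replicate 3 and WT replicate 3, r was 0.837. Rarb had r = 0.872 (exact permutation p = 0.00138, adjusted p = 0.0179) and rho = 0.733 (p = 0.0311, adjusted p = 0.169). Its r was 0.841 without M-Shp2-/- replicate 3 and WT replicate 3. For the surface molecules the relation to this sum did not pass the test. For Timd4, Selp and Vsig4, r with the fibroblast sum was 0.433, 0.432 and 0.255 and rho was 0.300, 0.317 and -0.017 (exact permutation p = 0.249, 0.252 and 0.513 for r and 0.437, 0.410 and 0.982 for rho, adjusted p at least 0.512), and r was 0.455, 0.390 and 0.116 without the 2 libraries farthest from the median of the sum. Relative to group means r was 0.638, 0.684 and 0.416, against 0.979 for Gata6, and -0.789 for Icam2, whose r over all libraries was -0.417 (exact permutation p = 0.261, adjusted p = 0.515; rho -0.333, p = 0.385, adjusted p = 0.642; r = -0.490 without the same 2 libraries). Some relation within groups is thus possible for Timd4, Selp and Icam2, and the differences between genes were not tested. Cd9 had r = -0.452 (exact permutation p = 0.219, adjusted p = 0.512) and rho = -0.533 (p = 0.148, adjusted p = 0.505), with r = -0.485 without the same 2 libraries.

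**Figure D4:**
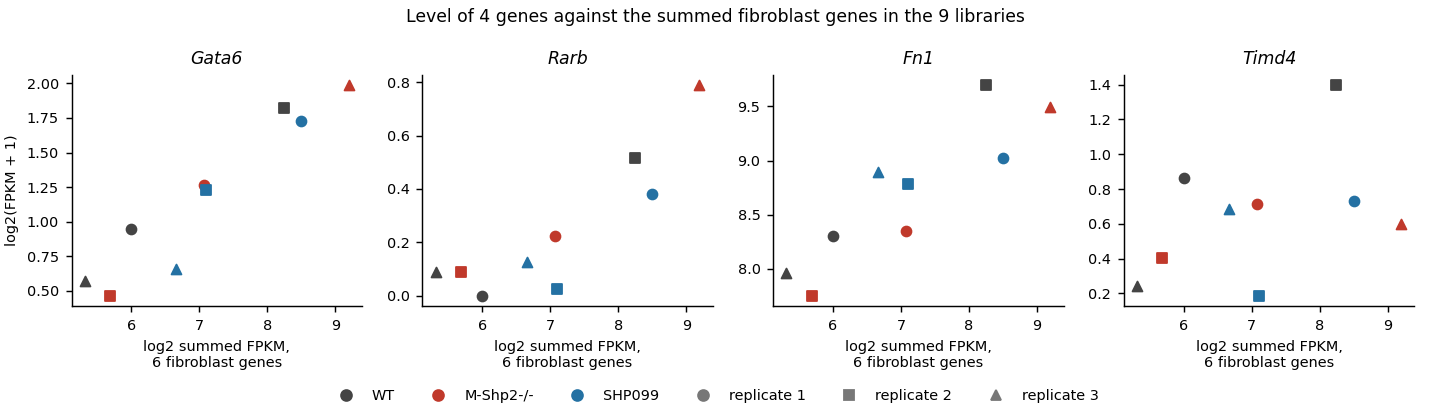
Log2(FPKM + 1) of Gata6, Rarb, Fn1 and Timd4 (vertical axes) against the log2 summed FPKM of 6 fibroblast genes (horizontal axes) in the 9 libraries, coloured by group and with a symbol for each replicate number. Gata6, Rarb and Fn1 follow the sum (r = 0.952, 0.872 and 0.888), and Timd4 is scattered (r = 0.433).

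With the fibroblast sum as a covariate, a setting chosen after seeing the data, the log2 fold change of Gata6 was -0.21 in M-Shp2-/- against WT and -0.31 in SHP099 against WT, from 0.13 and 0.092, and that of Fn1 was -0.56 and -0.17, from -0.12 and 0.25. Other estimates kept their sign but moved. In M-Shp2-/- against WT, Rarb came to 0.016 from 0.17, Cd9 to 0.45 from 0.25, Timd4 to -0.41 from -0.26, Selp to -0.48 from -0.28 and Vsig4 to -0.18 from -0.027, and in SHP099 against WT, Selp came to -0.93 from -0.55 and Vsig4 to -0.90 from -0.54. With this covariate 0 of the 10 passed 0.05 on the adjusted p of limma in any comparison. Which cells the reads of Gata6, Rarb and Fn1 came from was not tested. In bulk libraries such as these, fewer cells of a type and less RNA per cell cannot be told apart.

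As a further description, the 3 genes nearest to each tested member were taken among 8285 genes with a mean of at least 5 FPKM, by Pearson's r over the 9 libraries. Nearest to Gata6 were Col6a1 (0.988), Fkbp10 (0.987) and Mxra8 (0.981), of which Col6a1 encodes a collagen chain and Fkbp10 a collagen chaperone. Nearest to Cd9 were Fgr, a myeloid Src-family kinase, and Tm9sf4 (both 0.994) and Slc29a3 (0.988). Of the 10 genes only Vsig4, Adgre1, Cd9 and Fn1 were abundant enough to be found this way. Nearest to Selp were Itpripl2 (0.974), Vsig4 (0.926) and Zfp451 (0.918).

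Nearest to Vsig4 were Rnf169 (0.948), Plod3 (0.939) and Fam214b (0.921), and nearest to Fn1 were Sltm (0.976), Yme1l1 (0.955) and Map3k6 (0.949). Adgre1 was nearest to Susd6 (0.922), Sfpq (0.917) and Atp1b3 (0.880), and Icam2 to Trappc4 (0.946), Fkbp8 (0.941) and Pam16 (0.936). These values are the highest of 8285 per gene and carry no test.

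Around the 10 genes, the pathways they belong to were read from lists. Of 22 other genes known from resident peritoneal macrophages, 17 were tested, led by Saa3 (1187 to 8626 FPKM) and F10 (398 to 906 FPKM). None passed at an adjusted p of at most 0.05 in M-Shp2-/- against WT or against SHP099, where 0.0873% and 0.0699% of all genes did. In SHP099 against WT 3 of 17 passed, against 6.96% of all genes. Klf2 was higher (log2 fold change 1.14, limma adjusted p = 0.0236, range 0.00610 to 0.116 over the alternatives), and F10 (-0.79, adjusted p = 0.0236, range 0.0175 to 0.122) and Bhlhe40, a regulator of resident macrophage proliferation (-1.15, adjusted p = 0.00769, range 0.00637 to 0.0534), were lower, each in 3 of 3 libraries. None met the stricter threshold in the main setting, and each missed 0.05 in at least 1 alternative.

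Beside Rarb, 9 of 14 retinoid pathway genes were tested, with Dhrs3, a retinal reductase, at 49.9 to 88.4 FPKM and Rxra, the partner of retinoic acid receptors, at 44.7 to 75.7 FPKM. Rxrb alone passed at an adjusted p of at most 0.05, in SHP099 against WT (log2 fold change 0.49, limma adjusted p = 0.0245, range 0.0195 to 0.136 over the alternatives). That was 1 of 9, against 6.96% of all genes. Rxrb was also the only gene of the 9 with an estimate above 0 there. The other 8 were below 0, as were 28.8% of all genes tested, with Rxra at -0.25 (limma adjusted p = 0.174). The median was -0.15 over the 9 and 0.13 over all genes tested. Beside Gata6, 1 of 7 GATA factors and partners was tested, the GATA cofactor gene Zfpm1 at 2.10 to 7.60 FPKM, and Gata2 had a mean of 0.592 FPKM. Beside Timd4, 0 of 3 TIM family genes reached the minimum, and Havcr2 had the highest mean, 0.770 FPKM.

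Genes of small peritoneal or monocyte-derived macrophages covered a wide range of levels. Of 14, 4 had means below 1 FPKM and 10 were tested, led by H2-Ab1 (151 to 725 FPKM) and Cd74 (109 to 584 FPKM). In SHP099 against WT the estimates of 5 of the 10 were above 0 and those of 5 below, where 28.8% of all genes tested were below 0. The 5 above 0 were H2-Ab1, Cd74 and other genes of antigen presentation by MHC class II, at 0.29 to 0.47, with overlapping groups and limma adjusted p of 0.414 or more. Among the 5 below 0, Mrc1, the mannose receptor, fell by 2.18 on the log2 scale and was the only gene of these lists called at the stricter threshold (limma adjusted p = 0.00289, range 0.00141 to 0.0371 over the alternatives), a call lost without WT replicate 2, without any SHP099 replicate, with no minimum level, with all 9 libraries in the fit and with the replicate block. Itgax (-2.23, adjusted p = 0.0224, range 0.0118 to 0.184), Retnla (-2.67, 0.0390, range 0.0122 to 0.165) and Irf4 (-0.84, 0.0490, range 0.0278 to 0.193) were lower at an adjusted p of at most 0.05 by limma, though not in every alternative, so that 4 of 10 passed against 6.96% of all genes. In M-Shp2-/- against WT 0 of the 10 passed. Of the 4 genes below the minimum, Ccr2 was higher in 3 of 3 SHP099 libraries, at 1.56, 0.671 and 1.03 FPKM. In WT it was at 0.155, 0.400 and 0.506 FPKM. Fitted with no minimum level, its log2 fold change was 0.61 (limma adjusted p = 0.241). Cd226 was at 0.066, and Mgl2 and Cd209a at -0.25 and -0.13, in the same comparison.

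Among 8 inflammatory monocyte genes 6 were tested, led by Chil3 and Hp with means of 97.7 and 95.1 FPKM, and Chil3 (-1.32, limma adjusted p = 0.0322, range 0.0116 to 0.136 over the alternatives) and Vcan (-1.58, adjusted p = 0.0209, range 0.00671 to 0.110) were lower in SHP099 against WT. Hp pointed the other way, at 148, 183 and 177 FPKM in SHP099 against 15.7, 81.1 and 42.2 FPKM in WT, without passing (log2 fold change 2.12, limma adjusted p = 0.0534). Of the 6 genes, 2 thus passed at an adjusted p of at most 0.05, against 6.96% of all genes. Of the general macrophage genes, Csf1r, the receptor for the macrophage growth factor, was higher in SHP099 against WT (1.38, limma adjusted p = 0.0222, range 0.00394 to 0.116 over the alternatives), and past the stricter threshold without WT replicate 3 (1.65, adjusted p = 0.00394). Csf1r was the 1 gene to pass 0.05 among the 9 macrophage genes tested, against 6.96% of all genes. In M-Shp2-/- against WT 0 of the 9 passed. Lyz2 was at 4863, 4743 and 5407 FPKM there, against 7440, 10228 and 7951 FPKM in WT (log2 fold change -0.76, limma adjusted p = 0.388). The groups did not overlap for 2 of the 9, Lyz2 and Mertk, both lower in M-Shp2-/-, against 19.1% of all genes.

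**Figure D5:**
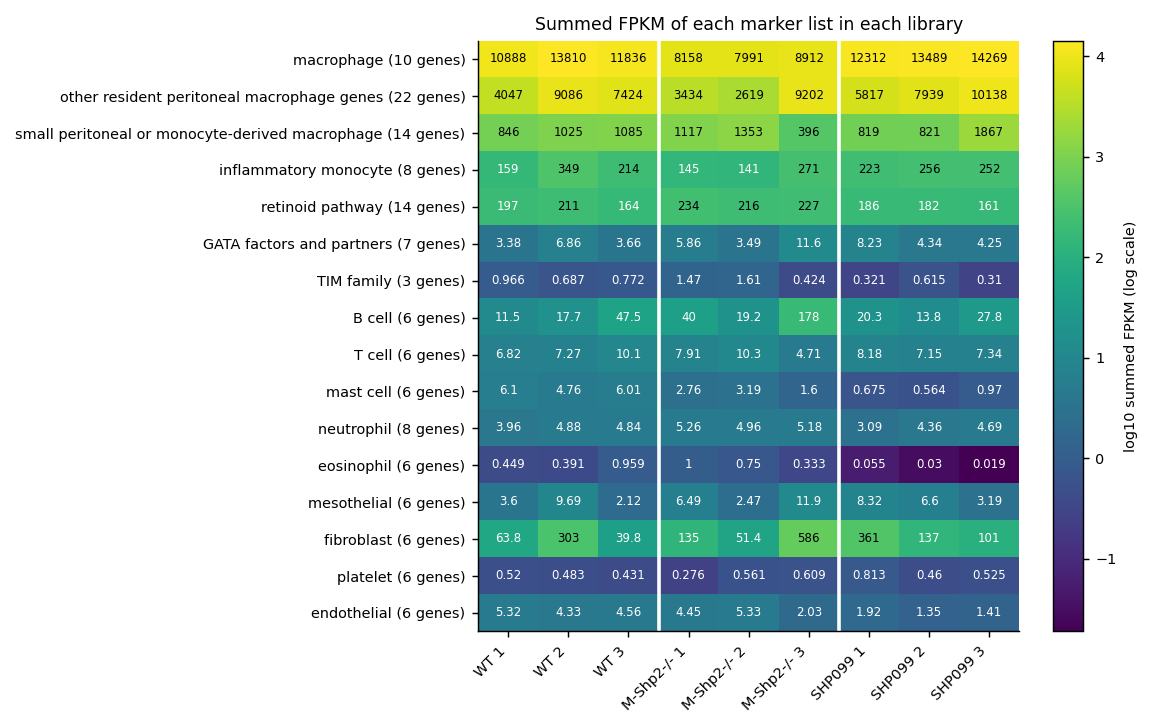
Summed FPKM of each marker list (rows) in each of the 9 libraries (columns), written in the cells and coloured on a log10 scale. General macrophage genes have the highest sum in 8 of 9 libraries, with other resident peritoneal macrophage genes above them in M-Shp2-/- replicate 3 (9202 against 8912 FPKM), and the fibroblast sum ranges from 39.8 FPKM in WT replicate 3 to 586 FPKM in M-Shp2-/- replicate 3. Of the 9202 FPKM, 6931 FPKM were those of Saa3, and of the 8912 FPKM, 5407 FPKM were those of Lyz2.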

How the data were processed

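The authors sequenced poly-A RNA, processed reads with CASAVA 1.8, aligned them with HISAT2 2.0.4, counted reads per gene with HTSeq 0.9.1 and deposited FPKM, 1 column per library. The genome build, annotation, strand and FPKM tool are not given in the sources used here. Gene spans deposited beside it matched GENCODE M21 (GRCm38) in 91.8% of 5235 cases, and 53706 of 54059 identifiers were found there. FPKM times mean transcript length fell within 0.05 of whole reads in 96.3% to 96.7% of values up to 50 reads, which gave each library's depth. For Gata6, reads recovered with M21 lengths were not whole, so that none are given.

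Values were compared as log2(FPKM + 1), which understates changes of genes at low level, for 11450 genes with a mean of at least 1 FPKM, with limma 3.58.1 (lmFit, eBayes with trend; R 4.3.3) on the 6 libraries of each comparison and Benjamini-Hochberg adjustment over all genes. The thresholds are those of the study's methods. The procedure was tested on simulated data. Correlations used log2 values and exact enumeration of 362880 pairings, two-sided. Tables and plots were made with Python 3.11.15, numpy 2.4.6, pandas 2.3.3, scipy 1.17.1 and matplotlib 3.10.9.

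Alternatives were pseudocounts of 0.1 and 5, no minimum level or a minimum of 5 FPKM, median-of-ratios scaling, all 9 libraries in the fit, a replicate block, voom on recovered reads, a limit of 0.05 on the adjusted p without a fold minimum, and each library left out. A fibroblast covariate and the joint removal of WT replicate 2 and M-Shp2-/- replicate 3 were added after seeing the data. Genes named are the 10 members, Ptpn11, the 2 most abundant genes of each other list with those whose adjusted p was 0.05 or lower, and the 3 genes nearest to each tested member. The result of 1 gene that meets this rule is not reported here. Members and lists were chosen with earlier results of these data known.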

Additional observations from a re-analysis of the deposited data

How the results depend on the processing

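Of the 472 values of the 10 genes under alternative settings, 433 kept their direction and their side of the threshold, 38 changed sign and 1 passed the threshold (Cd9 in M-Shp2-/- against SHP099 without M-Shp2-/- replicate 3, 1.39). The cause was not tested where no value shows it.

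In M-Shp2-/- against WT, where 1 gene was called, the count was 10 with an adjusted p up to 0.05 and no fold minimum, 0 with no minimum level, 3 with median-of-ratios scaling, 2 with all 9 libraries, 0 with the replicate block, 0 to 0 with each library left out, 0 with the fibroblast covariate and 0 without both WT replicate 2 and M-Shp2-/- replicate 3, the last 2 settings chosen after seeing the data. In SHP099 against WT the count of 19 became 797 with an adjusted p up to 0.05 and no fold minimum, 0 with no minimum level, 0 with the replicate block, 9 with voom and 0 to 26 with each library left out. In M-Shp2-/- against SHP099 the count of 0 became 8 with that limit, 1 with all 9 libraries and 0 to 159 with each library left out.

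With each library left out, log2 fold changes in M-Shp2-/- against WT ranged from -0.25 to 0.51 for Gata6, -0.043 to 0.33 for Rarb, -0.25 to 0.009 for Adgre1, -0.56 to 0.019 for Timd4, -0.065 to 0.77 for Cd9, -0.69 to 0.13 for Selp, -0.48 to 0.42 for Vsig4 and -0.60 to 0.40 for Fn1. In SHP099 against WT they ranged from -0.18 to 0.45 for Gata6, -0.13 to 0.13 for Rarb and -0.10 to 0.77 for Fn1. In M-Shp2-/- against SHP099 they ranged from -0.34 to 0.42 for Gata6, -0.019 to 0.33 for Rarb, -0.076 to 0.22 for Icam2, -0.14 to 0.14 for Timd4, -0.17 to 0.14 for Alox15 and -0.85 to 0.023 for Fn1. With the fibroblast covariate Gata6 was at -0.21 in M-Shp2-/- and -0.31 in SHP099 against WT, and Fn1 at -0.17 in SHP099 against WT. Without WT replicate 2 and M-Shp2-/- replicate 3, Timd4, Selp and Vsig4 were at 0.006, 0.11 and 0.53. Rarb in SHP099 against WT was at 0.020 with a pseudocount of 0.1 and 0.54 with voom, and Gata6 in M-Shp2-/- against SHP099 at -0.030 and -0.042.

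Replicate numbers did not pair the libraries. Deviations from group means correlated between same-numbered libraries at 0.492, -0.431 and 0.185 for M-Shp2-/- and WT, -0.041, -0.090 and 0.454 for SHP099 and WT, and -0.014, 0.183 and -0.047 for M-Shp2-/- and SHP099, and a library was closest to its own number in 6 of 18 cases. The replicate block left 0 genes called in each comparison. At 0 to 50 reads for Rarb and 0 to 128 for Alox15, depth limits what these genes can show.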

Other observations

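Lists of other blood and tissue cells varied with group or library. The 6 mast cell genes, of which Fcer1a was at 0 in every library, summed to 6.10, 4.76 and 6.01 FPKM in WT, to 2.76, 3.19 and 1.60 FPKM in M-Shp2-/- and to 0.675, 0.564 and 0.970 FPKM in SHP099, led by Kit and Tpsb2 with means of 1.35 and 0.901 FPKM. The sums of the 3 groups did not overlap, but both leading genes overlapped between M-Shp2-/- and SHP099, and Kit also between M-Shp2-/- and WT. The 8 neutrophil genes, led by Camp and Ltf with means of 4.28 and 0.141 FPKM, summed to 3.09 to 5.26 FPKM over all 9 libraries, and the 6 T cell genes, led by Lat and Cd3g with means of 4.88 and 0.871 FPKM, to 4.71 to 10.3 FPKM. Lat was lower in SHP099 against WT (log2 fold change -0.75, limma adjusted p = 0.0256, range 0.0190 to 0.280 over the alternatives), as was the endothelial gene Kdr (-1.08, adjusted p = 0.0406, range 0.0241 to 0.164), each in 3 of 3 libraries. Lat did not stand for its list, since the T cell receptor genes Cd3g, Cd3e and Cd3d, fitted with no minimum level, had estimates of 0.82, 0.48 and 0.35 in the same comparison (limma adjusted p = 0.263, 0.377 and 0.672). Cd3e and Cd3d were chosen after their values were seen.

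Ighm, the most abundant gene of the B cell list, was at 5.97, 13.6 and 44.8 FPKM in WT, at 19.9, 9.84 and 175 FPKM in M-Shp2-/- and at 19.3, 12.8 and 26.5 FPKM in SHP099. Ighm did not stand for its list. In the M-Shp2-/- libraries Pax5 was at 5.06, 1.84 and 0.342 FPKM and Ms4a1 at 0.859, 0.531 and 0.106 FPKM. Both were highest in replicate 1 and lowest in replicate 3, where Ighm was highest. Cd79a (3.18, 1.23 and 1.23 FPKM) and Cd79b (1.02, 0.666 and 0.317 FPKM) were also highest in replicate 1. Pax5, Ms4a1, Cd79a and Cd79b were chosen after their values were seen.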
